A study of Homo sapiens with 24 samples.

Results

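The enzymes of the tricarboxylic acid (TCA) cycle studied here are encoded in the nucleus, and their transcripts were followed in 2 human cell lines that lost mitochondrial DNA (mtDNA). The members were 9 listed genes, taken as probe sets whose single gene symbol in the platform annotation was a member. Of these, 8 genes had 16 such probe sets (CS, IDH2, IDH3A, IDH3B, IDH3G, OGDH, DLST and SUCLA2), and the remaining gene was not analysed here. The whole array holds 19775 genes with 41097 single-symbol probe sets. Where a gene had several probe sets it was described by the brightest, that with the highest mean log2 signal over all arrays. Its other probe sets were set beside it in some comparisons. For OGDH another probe set was the brighter in every HEK293 group (mean log2 signal 8.42 against 7.71 at DN-POLG day 0).

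RNA of 24 cultures was hybridised to Affymetrix HG-U133 Plus 2.0 arrays, with 3 cultures in each of 8 groups. HEK293 cells carried DN-POLG, a dominant negative form of the polymerase that copies mtDNA, which doxycycline switches on. They were sampled uninduced at day 0 and after 3, 6 and 9 days of doxycycline. HEK293 DN-POLG cells that also expressed AOX and NDI1, alternative enzymes that together pass electrons from NADH to oxygen without the mtDNA-encoded chain, were sampled at days 0 and 9. The osteosarcoma line 143B was used as rho+ cells, which hold mtDNA, and as rho0 cells, from which chronic ethidium bromide had removed it. All groups grew in high glucose DMEM with uridine and pyruvate. Each model is a single engineered or selected line, so p-values measure the spread between cultures and not between independent lines. That spread was pooled over all arrays of a fit. It joined DN-POLG and AOX/NDI1 cultures, and in the comparison of lines also 143B cultures. The median standard deviation of log2 signal was 0.26 to 0.44 in the DN-POLG groups and 0.14 to 0.21 in the AOX/NDI1 groups. In bulk RNA, fewer expressing cells and less RNA per cell cannot be told apart.

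The TCA cycle joins acetyl-CoA to oxaloacetate and oxidises the product stepwise in the mitochondrial matrix, handing electrons to NAD and to the respiratory chain. Citrate synthase (CS) makes citrate. The NAD-dependent isocitrate dehydrogenase, built from IDH3A (catalytic), IDH3B and IDH3G (regulatory), and the NADP-dependent IDH2 both make 2-oxoglutarate. OGDH and DLST are the dehydrogenase and the succinyltransferase of the complex that turns 2-oxoglutarate into succinyl-CoA, and SUCLA2 is a subunit of the ATP-forming succinyl-CoA ligase. Without mtDNA the respiratory chain cannot reoxidise NADH, while all the cycle's enzymes can still be made from nuclear genes.

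The models were checked by mtDNA transcripts. The signal of ATP6, an mtDNA transcript, lay between 14103 and 22884 on the DN-POLG day 0 arrays and between 2712 and 4418 at day 9, and in 143B cells it was at least 19911 in rho+ and at most 84.0 in rho0 cells. Other mtDNA probe sets were far lower in rho0 cells too, but at DN-POLG day 9 they differed among themselves. COX2 fell by 1.85 (limma adjusted p = 0.000144) and ND6 fell by 2.53 (0.00402), whereas COX1 (-0.16), ND2 (-0.72) and both ND4 probe sets (-0.18 and -0.63) did not pass, and at AOX/NDI1 day 9 COX1 and ND2 (0.03 and -0.20) did not pass either. One of 3 POLG probe sets rose with doxycycline, from at most 421 to at least 2834 on every induced DN-POLG array. At DN-POLG day 3 its difference of 3.26 did not pass (limma adjusted p = 0.308), although the groups did not overlap. On AOX/NDI1 day 9 arrays, which share the estimate of spread, it read 4035, 2468 and 447 in replicates 1, 2 and 3. In that last culture ATP6 was nonetheless 3797, beside 5442 and 3790 in replicates 1 and 2. The summed signal of 7 HEK293 markers was 9007 to 13069 in HEK293 cells and 454 to 1304 in 143B cells. That of 12 mesenchymal 143B markers was 9501 to 15912 and 40870 to 76437. Not every marker followed its list. CAV2 was 1714 to 4306 in HEK293 and 569 to 2519 in 143B cells. LHX1 and NEFM were near background in HEK293 cells and reached higher in 143B cells, and THY1 was near background in 143B cells. PAX2 (69.5 to 205) and EYA1 (57.5 to 300) were dim in HEK293 cells. The ranges of PAX2, EYA1, S100A4, CAV1, COL6A2, LGALS1 and ANXA1 also overlapped between the lines. RNA integrity, read as the 3′ to 5′ signal ratio of ACTB, was 1.05 to 1.81 on all HEK293 arrays but DN-POLG day 6 replicate 1, where it was 8.92, and 5.53 to 17.1 in 143B cells.

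The levels of the 8 enzymes were first set out over all groups. Signals are on the linear MAS5 scale and cannot be compared between genes, because each probe set has its own response. IDH3B ranged from 4862 to 9261 over the 18 HEK293 arrays and from 973 to 1874 over the 6 arrays of 143B. IDH3G ranged from 1730 to 3011 and from 404 to 806. For both genes no 143B array reached the lowest HEK293 array, and the same held for DLST (755 to 1692 against 145 to 443). The ranges of the other 5 genes overlapped between the lines, CS with 3078 to 8740 in HEK293 and 4049 to 6371 in 143B cells. For SUCLA2 the overlap rested on DN-POLG day 6 replicate 1 (2495). The next lowest HEK293 array read 4218 and the highest 143B array 3615.

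**Figure D1:**
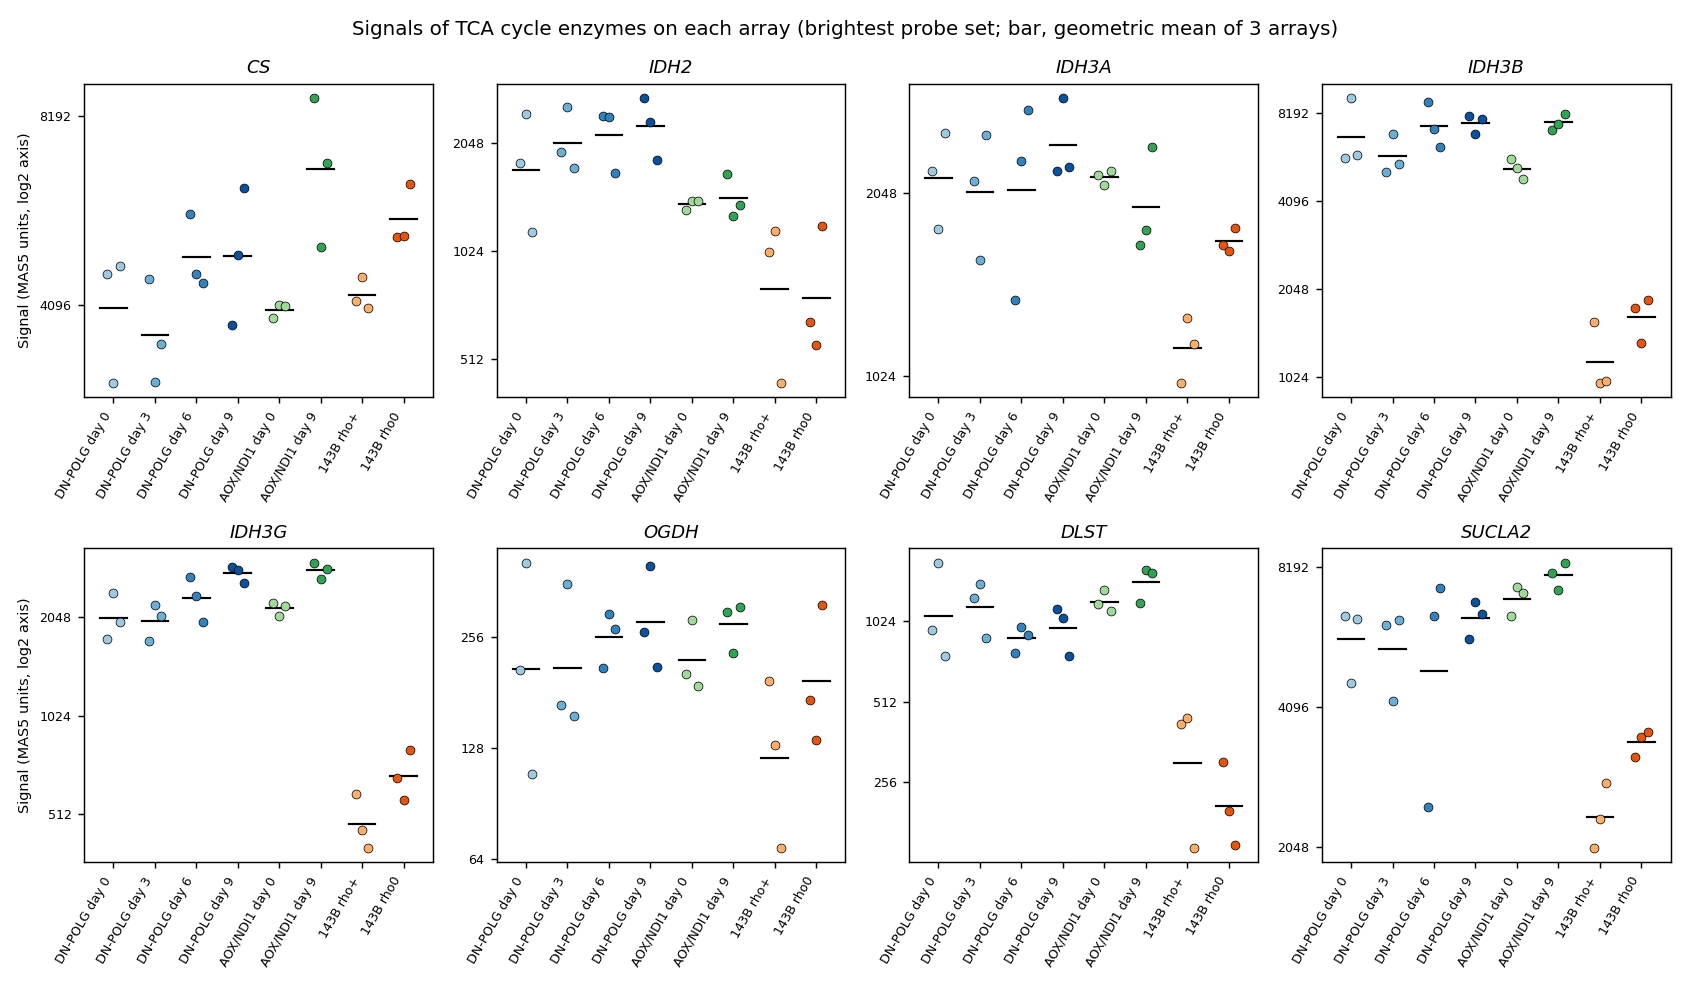
Signal of the brightest probe set of each of the 8 enzymes on each array (y axis, MAS5 units on a log2 axis) in the 8 groups (x axis), with 3 points per group and a bar at their geometric mean. IDH3B, IDH3G and DLST lie lower on every 143B array than on any HEK293 array. The other 5 genes overlap between the lines, SUCLA2 only through DN-POLG day 6 replicate 1.

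Ordered by mean log2 signal, CS, OGDH, IDH3G, IDH3B, SUCLA2 and DLST were highest or second highest in AOX/NDI1 day 9 cells and IDH2 and IDH3A in DN-POLG day 9 cells. Neighbouring groups in these orders nearly all overlapped. The exceptions were single steps: between AOX/NDI1 day 0 and 143B rho+ for IDH2, between AOX/NDI1 day 0 and 143B rho0 for IDH3B, between DN-POLG day 3 and 143B rho0 for IDH3G, between DN-POLG day 6 and 143B rho+ for DLST, and between 143B rho0 and rho+ for IDH3A and SUCLA2. For CS and OGDH every neighbouring pair overlapped.

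Acute mtDNA depletion in DN-POLG cells addressed whether transcripts of the cycle's enzymes change while mtDNA is being lost. At day 3, 0 of 15 tested member probe sets passed (limma, Benjamini-Hochberg adjusted over all tested probe sets, threshold 0.05), beside 0% of all 22246 tested; at an unadjusted p under 0.05 there were 0 members and 597 probe sets in all. The induced POLG probe set did not pass at day 3 either, so a day 3 count of 0 does not show that nothing changed. At day 6 the count was 0 of 15, beside 1.56% of all probe sets. At day 9 it was again 0 of 15, beside 8.74%. One probe set of OGDH lay below the signal filter in HEK293 cells and was not tested there.

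Day 3 differences of the 8 genes ran from -0.22 to 0.25 on the log2 scale, and the 95% intervals together reached from -0.86 to 0.87. At day 9 the differences ran from -0.14 for DLST to 0.46 for IDH3G, with intervals from -0.72 to 1.29. With 3 cultures a group, differences inside these intervals could not be told from 0. At day 9, 12 of 15 member probe sets had a difference above 0, beside 50.7% of all tested, and the member median was 0.18 beside 0.01 for all tested.

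IDH3G, the gamma subunit of NAD-dependent isocitrate dehydrogenase, had the smallest p of the members at day 9. Its signal was 1753, 2425 and 1976 in day 0 replicates 1, 2 and 3, and 2922, 2855 and 2613 at day 9. All day 9 arrays lay above all day 0 arrays. The log2 difference was 0.46 (standard error 0.18; unadjusted p = 0.0231, limma adjusted p = 0.145), and it did not pass. Its second, dimmer probe set differed by 0.20 and its groups overlapped.

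The other enzymes varied between cultures as much as between days. IDH3B, the beta subunit, read 5743, 9261 and 5887 at day 0 and 8025, 6956 and 7842 at day 9, so that the highest array was a day 0 array. CS read 4592, 3078 and 4730 at day 0 and 3800, 4924 and 6291 at day 9. OGDH, a dim probe set, spread from 109 to 407 within day 0 alone. For these genes the groups overlapped, and the log2 differences were 0.16, 0.27 and 0.43. The other tested OGDH probe set differed by 0.24. IDH3A differed by 0.18 on its brightest probe set and by -0.02 and -0.25 on the others.

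At day 6 the array with the raised ACTB ratio, replicate 1, had the lowest SUCLA2 signal of the HEK293 arrays, 2495 beside 6409 and 7366 in the other replicates, and the lowest IDH3A, 1365 beside 2315 and 2807. Its IDH3B and IDH3G signals, 8935 and 2724, were instead the highest of day 6. The part of RNA integrity in this was not tested. Without that array the day 6 count was still 0 of 15.

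The cells with AOX/NDI1 addressed whether the response depends on NADH oxidation. At day 9 against day 0, 0 of 15 member probe sets passed, beside 12.4% of all tested. At an unadjusted p under 0.05 there were 6 of 15, beside 26.8% of all tested. These were CS, the IDH3B probe sets and the brightest of IDH3G, all higher, and a dim IDH3A probe set, lower. The member median was 0.29 beside -0.04 for all tested, and 12 of 15 members were above 0, beside 47.0% of all.

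CS, which brings acetyl-CoA into the cycle, came closest to the threshold. Its signal was 3908, 4098 and 4080 at day 0 and 8740, 5071 and 6883 at day 9. All day 9 arrays were above all day 0 arrays, and they were also the more scattered. The log2 difference was 0.74 (standard error 0.25, limma adjusted p = 0.0654), with a 95% interval from 0.21 to 1.27. It passed without AOX/NDI1 day 9 replicate 2 (0.95, adjusted p = 0.0369), without DN-POLG day 6 replicate 1, which shares the estimate of spread (adjusted p = 0.0462), when the model held only the arrays compared (0.0309) and with array weights (0.000333).

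IDH3B behaved alike on its 3 probe sets. The brightest read 5735, 5313 and 4862 at day 0 and 7209, 7524 and 8186 at day 9, without overlap. The differences were 0.53 (adjusted p = 0.120), 0.82 (0.0954) and 0.53 (0.143). IDH3G read 2263, 2068 and 2223 at day 0 and 3011, 2686 and 2877 at day 9, also without overlap, with a difference of 0.39 (adjusted p = 0.186). These subunits passed with only the arrays compared (IDH3B 0.0165, IDH3G 0.0336) and with array weights (0.00269 and 0.00427), settings that also called 7739 and 9711 of all probe sets in place of 2758.

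The catalytic subunit IDH3A did not follow IDH3B and IDH3G. Its brightest probe set read 2194, 2113 and 2230 at day 0 and 1682, 1778 and 2445 at day 9, a difference of -0.17 (adjusted p = 0.738). A dim probe set of the gene went from 111, 122 and 74.1 to 62.1, 53.5 and 54.6, a difference of -0.82 that did not pass (adjusted p = 0.127). Like IDH3B and IDH3G it passed with only the arrays compared (0.0229) and with array weights (0.0116). Its day 9 signals lay under the mean of 66.9 that the filter required. The remaining probe set differed by 0.03. DLST and SUCLA2 differed by 0.25 and 0.17, and IDH2 by 0.05, all within the spread of the cultures. Leaving out replicate 3, the culture with a low POLG signal, kept the count at 0.

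**Figure D2:**
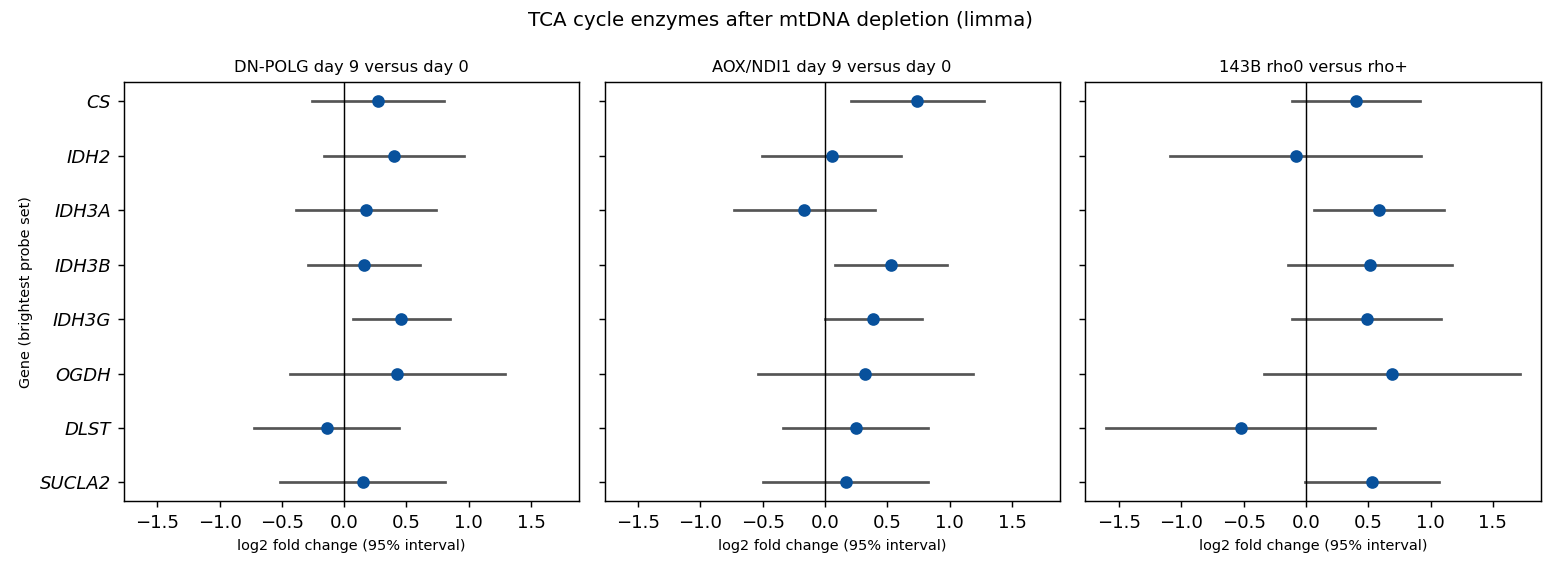
Log2 fold change (x axis) with its 95% interval for the brightest probe set of each enzyme (y axis) in DN-POLG cells at day 9, AOX/NDI1 cells at day 9 and 143B rho0 cells, each against its control group of 3 arrays. No point passed the adjusted threshold; CS in AOX/NDI1 cells, at 0.74, lay furthest from 0 of all points shown.

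Whether AOX/NDI1 changed the response was tested as the difference of the day 9 responses. The count was 0 of 15 members, beside 0% of all tested (748 probe sets at an unadjusted p under 0.05, and 0 of the members). Among the 8 genes the differences ran from -0.35 for IDH2 (95% interval -1.14 to 0.45) to 0.47 for CS (-0.28 to 1.22). The intervals include both no difference and differences of the size of the responses themselves.

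Against DN-POLG cells of the same day, AOX/NDI1 cells had 0 of 15 members called at day 0, beside 0.0045% of all tested, and 0 of 15 at day 9, beside 0.0045%. IDH2 had the largest difference of the 8 genes at day 9, with 1677, 1285 and 1372 in AOX/NDI1 cells and 2731, 2341 and 1838 in DN-POLG cells. The groups did not overlap, and the log2 difference was -0.66 (unadjusted p = 0.0229, limma adjusted p = 1.00). At day 0 the corresponding IDH2 difference was -0.32 and the groups overlapped. The dimmer IDH2 probe set differed by -0.21 at day 9 and by -0.04 at day 0.

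Chronic absence of mtDNA was studied in 143B cells. Of 14 tested member probe sets, 0 passed between rho0 and rho+ cells, beside 7.82% of all 22511 tested; 2 dim probe sets, 1 each of IDH3A and OGDH, lay below the signal filter. The member median was 0.51 beside -0.05 for all tested, and 11 of 14 members were above 0, beside 46.6% of all. When the arrays were set to one median, the median of all tested moved to 0.26 and that of the members to 0.82. That setting shifts every difference by the same amount, so the gap between these medians stayed at 0.56 by construction. After quantile normalization the median of all tested was 0.04 and that of the members 0.49, a gap of 0.46.

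IDH3A was the enzyme with the smallest p, on 2 probe sets. The brightest read 995, 1275 and 1153 in rho+ and 1683, 1642 and 1794 in rho0 cells, and the second 321, 332 and 372 and then 542, 446 and 627. Neither overlapped between the lines. The differences were 0.59 and 0.64 (limma adjusted p = 0.140 and 0.129).

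SUCLA2 likewise had every rho0 array (3202, 3528 and 3615) above every rho+ array (2043, 2354 and 2818), a difference of 0.53 that did not pass. CS was 4152, 4546 and 4049 in rho+ and 5260, 5267 and 6371 in rho0 cells, a difference of 0.40 without overlap that did not pass either. DLST differed by -0.53 and IDH2 by -0.08, with overlapping groups. The ACTB ratio was 10.4 to 17.1 in rho+ and 5.53 to 8.12 in rho0 cells, and its part in these differences was not tested.

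The cell lines were also compared where both hold mtDNA. The 143B rho+ cells had 11 of 16 member probe sets called against DN-POLG day 0 cells, all lower and none higher. The share called was near that of all 22103 tested, 66.1%, of which 6547 were higher and 8055 lower. Under quantile normalization and at one median 14 of 16 members were called, beside 68.1% and 66.9% of all. The member median was -1.18 beside -0.15 for all tested. With arrays set to one median 4444 probe sets were higher and 10324 lower, the median of all was -0.65 and that of the members -1.69.

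The regulatory subunits of NAD-dependent isocitrate dehydrogenase had the smallest adjusted p of the genes' brightest probe sets. IDH3B read 5743, 9261 and 5887 in DN-POLG day 0 and 1579, 973 and 986 in 143B rho+ cells. IDH3G read 1753, 2425 and 1976 against 589, 459 and 404. On these probe sets both were far apart, by -2.56 (standard error 0.23, limma adjusted p = 9.29e-09) and -2.09 (0.20, adjusted p = 1.80e-08). The second, dimmer IDH3G probe set differed by only -0.42 and did not pass (limma adjusted p = 0.238). The other IDH3B probe sets differed by -1.46 and -2.77 and passed. IDH3A was lower by -0.94 on its brightest probe set (adjusted p = 0.00266) and by -2.47 on the second (2.11e-09), while the remaining, dim one differed by -0.44 and did not pass.

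Further along the cycle DLST read 944, 1692 and 755 in DN-POLG day 0 and 422, 443 and 145 in 143B rho+ cells, a difference of -1.82 (limma adjusted p = 0.000204). SUCLA2 was 6434, 4622 and 6330 against 2043, 2354 and 2818, a difference of -1.27 (adjusted p = 0.000766). IDH2 was 1796, 2467 and 1156 against 1016, 1160 and 438, a difference of -1.10 (adjusted p = 0.00832) whose groups overlapped narrowly, and which did not pass without DN-POLG day 0 replicate 2 (0.0547), without 143B rho+ replicate 3 (0.0851) or with only the arrays compared (0.0559).

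CS did not share this. Its signals of 4592, 3078 and 4730 in DN-POLG day 0 and 4152, 4546 and 4049 in 143B rho+ cells gave a difference of 0.06, with a 95% interval from -0.43 to 0.56. OGDH gave no single answer: its brightest probe set differed by -0.80 (adjusted p = 0.119), another by -3.47 (0.00146) and the remaining one by 0.48 without passing. The called one, 1 of the 11, read 72.4, 49.7 and 8.19 in 143B rho+ cells, about or below the mean signal of 71.1 that the filter required, so it was tested because of its HEK293 signals and the size of its difference is uncertain.

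**Figure D3:**
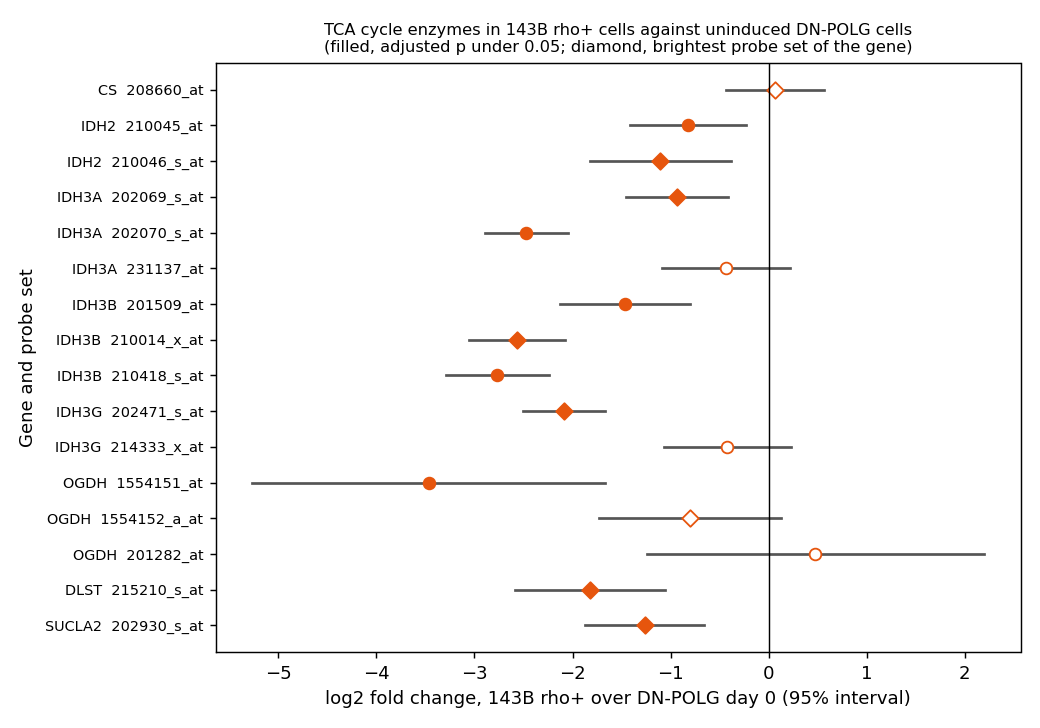
Log2 fold change of 143B rho+ over DN-POLG day 0 cells (x axis, 3 arrays each) with its 95% interval for all 16 member probe sets (y axis); filled symbols passed an adjusted p of 0.05 and diamonds mark the brightest probe set of a gene. The 11 filled points all lie left of 0, and probe sets of OGDH, IDH3A, IDH3B and IDH3G differ among themselves.

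In the same comparison the ACTB ratio was 1.08 to 1.75 in DN-POLG day 0 and 10.4 to 17.1 in 143B rho+ cells. RNA integrity and cell line cannot be told apart in these arrays. Probe sets of one gene differed in size for IDH3A, IDH3B, IDH3G and OGDH, and the part of RNA integrity in this was not tested.

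The 3 subunits of NAD-dependent isocitrate dehydrogenase are shown by the sequence just upstream of their start sites, because they are parts of 1 enzyme and all 3 passed between the lines. The stretches are the 250 bases before each RefSeq transcription start in GRCh38.p14, on the gene's strand: IDH3A at chr15:78149112-78149361 (plus strand), IDH3B at chr20:2664217-2664466 (minus strand) and IDH3G at chrX:153794376-153794625 (minus strand). Capitals mark GCGCNTGCG, a pattern of the NRF1 type, and CCGGAAG, a core of the ETS type, both searched on either strand.
IDH3A: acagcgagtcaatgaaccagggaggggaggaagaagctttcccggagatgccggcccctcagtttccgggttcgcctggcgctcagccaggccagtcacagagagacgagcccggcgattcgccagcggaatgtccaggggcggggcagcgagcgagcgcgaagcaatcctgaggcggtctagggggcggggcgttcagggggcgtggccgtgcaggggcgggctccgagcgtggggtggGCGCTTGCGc
IDH3B: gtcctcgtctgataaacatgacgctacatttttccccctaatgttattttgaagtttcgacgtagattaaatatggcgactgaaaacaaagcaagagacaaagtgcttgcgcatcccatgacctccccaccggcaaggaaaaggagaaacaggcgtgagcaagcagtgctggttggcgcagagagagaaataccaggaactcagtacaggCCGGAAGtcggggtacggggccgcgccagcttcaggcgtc
IDH3G: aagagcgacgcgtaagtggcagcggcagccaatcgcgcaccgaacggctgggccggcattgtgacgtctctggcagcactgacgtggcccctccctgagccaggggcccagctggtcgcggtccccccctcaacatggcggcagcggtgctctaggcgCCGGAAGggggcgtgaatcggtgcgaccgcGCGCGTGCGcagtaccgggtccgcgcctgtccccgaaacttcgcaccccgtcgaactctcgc

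RefSeq sequence was at hand for 7 of the 8 genes. GCGCNTGCG was present in this window in IDH3A, IDH3G and SUCLA2, 3 of 7, and in 6.54% of all 35116 promoters. In IDH3A it ended 2 bases before the start, and in IDH3G it lay 62 to 54 bases before it. CCGGAAG was present in IDH3B, IDH3G and DLST, 3 of 7, and in 8.52% of all promoters. A match is only a run of letters, and these arrays did not measure binding.

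IDH3G starts 74 bases from SSR4, which encodes a subunit of a complex at the endoplasmic reticulum translocon and is read in the opposite direction. SSR4, looked up after the results for IDH3G were known, differed by -2.05 between 143B rho+ and DN-POLG day 0 cells (limma adjusted p = 2.68e-06), beside -2.09 for IDH3G. Between rho0 and rho+ cells SSR4 was higher by 1.57 (adjusted p = 0.0348), beside 0.49 for IDH3G, which did not pass. In DN-POLG cells at day 9 the values were 0.39 and 0.46, and neither passed. The 2 genes differed in sign elsewhere, also without passing. In AOX/NDI1 cells at day 9 SSR4 was -0.04 and IDH3G 0.39, and between the models at day 9 they were -0.36 and 0.03.

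The neighbouring enzymes were described by lists. Beside the members, 10 further enzymes of the cycle were listed, 8 of them with a probe set, and 16 enzymes at its branch points or their cytosolic counterparts, 14 with a probe set and 13 of those tested. By the brightest probe set, 0 of 8 cycle enzymes passed at any day of DN-POLG cells, in AOX/NDI1 cells at day 9 or in 143B rho0 cells. Their medians were 0.27 at DN-POLG day 9 and 0.31 in rho0 cells, on the same side as those of the members. In rho0 cells dimmer probe sets of DLD (1.16, adjusted p = 0.0269) and MDH2 (1.37, 0.0317) did pass; these were picked out after their values were seen.

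PCK2, the mitochondrial phosphoenolpyruvate carboxykinase, which draws oxaloacetate from the cycle, was the single branch point enzyme that passed in the HEK293 comparisons. Its signal was 536, 285 and 350 at DN-POLG day 0 and 691, 660 and 844 at day 3. It then read 1054, 663 and 674 at day 6 and 1347, 908 and 1484 at day 9. Every induced array lay above every day 0 array. At day 9 PCK2 rose by 1.70 (standard error 0.27, limma adjusted p = 0.00104), and at days 3 and 6 the differences of 0.95 and 1.05 did not pass (adjusted p = 1.00 and 0.0626).

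In AOX/NDI1 cells PCK2 went from 488, 516 and 529 to 915, 806 and 619, a difference of 0.59 that did not pass (limma adjusted p = 0.166). The difference between these day 9 responses was -1.10 (unadjusted p = 0.0100, adjusted p = 1.00), so the 2 responses were not shown to differ.

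In 143B cells ABAT, the GABA transaminase that feeds succinate semialdehyde towards the cycle, passed by its brightest probe set. It read 153, 341 and 188 in rho+ and 36.9, 44.2 and 80.5 in rho0 cells, without overlap (limma adjusted p = 0.0227). All rho0 signals lay under the mean of 87.8 that the filter required, so it was tested because of its rho+ signals and the size of the fall is uncertain. This call was lost without rho+ replicate 1 or 3 or rho0 replicate 1 or 2 (adjusted p = 0.0528 to 0.0728), without the signal filter (0.0962) and with the ANOVA of the methods (0.127). A dimmer probe set of IDH1, the cytosolic isocitrate dehydrogenase, also passed (-2.25, adjusted p = 0.0161), picked out after its values were seen, while the brightest IDH1 probe set did not (-0.56).

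Between the cell lines, 2 of the 8 other cycle enzymes were higher and 6 lower in 143B rho+ than in DN-POLG day 0 cells, and of the 13 branch point enzymes 2 were higher and 7 lower. The medians were -1.11 and -0.79. Of the 2 higher cycle enzymes, named here after their values were seen, OGDHL was higher by 1.29 and missed the threshold with arrays set to one median (0.79, limma adjusted p = 0.0527) and without DN-POLG day 0 replicate 2 (0.81, 0.0502). SDHC, higher by 0.82 on its brightest probe set, had 6 dimmer ones, of which 3 were lower, 1 was higher (1.49) and 2 did not pass. The mitochondrial malate dehydrogenase MDH2 differed by -2.28 and its cytosolic counterpart MDH1 by -2.24 (limma adjusted p = 1.07e-09 and 1.09e-08). ALDH5A1, which oxidises succinate semialdehyde to succinate, differed by -2.81 (adjusted p = 3.72e-07). PCK2 went the other way, with 6210, 10689 and 7068 in 143B rho+ cells, a difference of 4.37 (adjusted p = 4.56e-11).

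**Figure D4:**
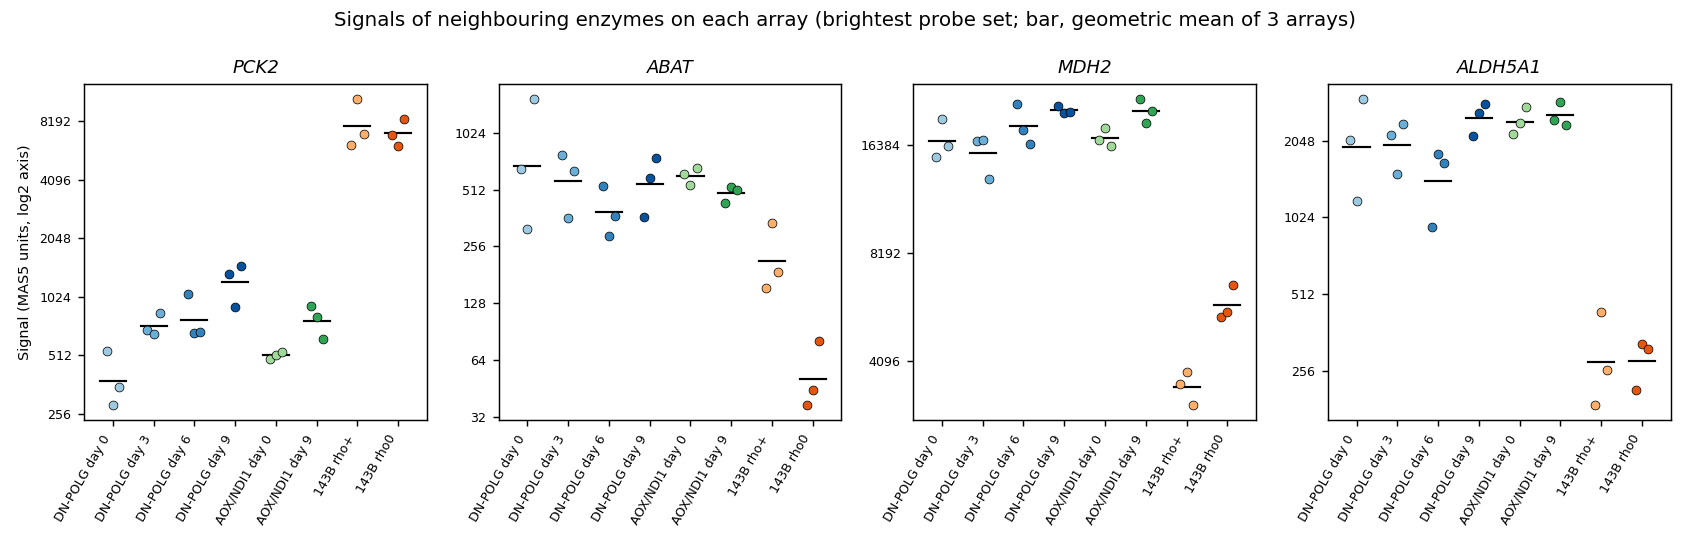
Signals on each array (y axis, MAS5 units on a log2 axis) of PCK2, ABAT, MDH2 and ALDH5A1 in the 8 groups (x axis), with a bar at the geometric mean of 3 arrays. PCK2 is above its day 0 arrays at each later day of DN-POLG cells and reaches at least 6129 in 143B cells, ABAT is lowest in 143B rho0 cells, and MDH2 and ALDH5A1 are lower in 143B than in HEK293 cells.

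The members varied together only in part. Over the 18 HEK293 arrays, which share culture days and scaling, the 28 pairs of members had Pearson correlations of log2 signal from -0.59 to 0.74 with a median of 0.07. The highest was between IDH3B and IDH3G, subunits of one enzyme (0.74), followed by IDH3A and SUCLA2 (0.64) and by OGDH and DLST, partners in one complex (0.56). IDH2 and SUCLA2 had the lowest (-0.59). IDH3A, the catalytic partner, ran against IDH3B (-0.41). Within groups, after the group means were removed, the pairs ran from -0.75 (IDH3B and SUCLA2) to 0.87 (IDH3A and SUCLA2) with a median of -0.14, and IDH3B and IDH3G reached 0.81. Without DN-POLG day 6 replicate 1, the array with the raised ACTB ratio, a setting chosen after the data were seen, IDH3A and SUCLA2 had 0.40 over 17 arrays and 0.81 within groups, and IDH3B and IDH3G 0.72 and 0.76. IDH3A and IDH3B then had -0.27 over the 17 arrays and -0.59 within groups. The highest pair over these 17 arrays was CS and SUCLA2, at 0.74 in place of 0.28, and the within-group median was -0.41.

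Averaged over the 8 enzymes, with each gene centred on its own mean over the 18 arrays, the log2 level was -0.12, 0.14 and -0.30 in DN-POLG day 0 and 0.13, 0.26 and 0.04 at day 9, and it was -0.12, -0.03 and -0.14 in AOX/NDI1 day 0 and 0.22, 0.06 and 0.28 at day 9. The DN-POLG groups overlapped and the AOX/NDI1 groups did not. Of 11735 other genes ranked by likeness to this average over the 18 arrays, the nearest were NFIL3 (Pearson r = 0.93), DRAP1 (0.91), DCAF13 (0.91), OTUD1 (0.91) and LRMDA (0.90), and the gene at rank 100 had an r of 0.80.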

How the data were processed

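RNA of 24 cultures was measured on Affymetrix HG-U133 Plus 2.0 arrays. The authors deposited signal intensities made with MAS5 in Affymetrix Expression Console, linear, 1 column an array. The trimmed mean with the outer 2% left out was about 500.1 on every array, and the scaling target is not given in the sources used here. Log2 of the signal was taken with nothing added and no further normalization. Arrays give no read depth, and their number limits the precision.

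The platform annotation gave a single symbol to 41097 of 54675 probe sets, several to 1801 and none to 11777. A single-symbol probe set was tested if its mean log2 signal reached the median over all probe sets and arrays of the model (a signal of 66.9 in HEK293, 87.8 in 143B and 71.1 over both). limma 3.58.1 in R 4.3.3 was fitted to 18 HEK293 arrays with 6 group means, to 6 arrays of 143B, and to all 24 for the comparison of lines, with Benjamini-Hochberg adjustment over all tested probe sets and a two-sided threshold of 0.05. The brightest probe set stands for a gene, and enzymes outside the members are named where it passed, up to 4 a comparison by p, except where said. Promoter sequence is from RefSeq.

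The members, lists, patterns and tests were chosen with earlier results of these data known. The methods describe culture rounds grown from one starter, so replicate numbers pair samples within each HEK293 model; deviations from group means of same-numbered arrays correlated at 0.33 to 0.51 between DN-POLG days 0 and 3 and at 0.17 to 0.21 between days 0 and 6, but at -0.34 to 0.03 between days 0 and 9 and -0.05 to 0.05 for AOX/NDI1. In 143B cells, where nothing states a pairing, they were -0.11 to 0.04. The alternatives were 12 settings and each array left out in turn. The code was tested on simulated data.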

Additional observations from a re-analysis of the deposited data

How the results depend on the processing

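Of the members' counts, those in DN-POLG cells at days 3 and 6, of the difference of responses and of the models at day 9 were 0 under every setting run. With the arrays of the comparison alone, 6 of 15 member probe sets passed in AOX/NDI1 cells at day 9 in place of 0, beside 34.4% of all tested. With array weights, 6 passed there, beside 43.7% of all tested. In both settings these were CS, the IDH3B probe sets and the brightest of IDH3G, all higher, and a dim IDH3A probe set, lower. Under the same weights 2 passed at DN-POLG day 9 (IDH3G and a second probe set of IDH3B), beside 25.8%. Between the models at day 0, 1 passed (a second probe set of IDH3A), beside 5.08%. In 143B rho0 cells 1 passed (the dimmer IDH3G probe set), beside 36.9%. Without DN-POLG day 6 replicate 1, 1 passed in AOX/NDI1 cells at day 9, beside 18.2% of all tested. Leaving out single arrays gave 0 to 1, the 1 being CS without AOX/NDI1 day 9 replicate 2, beside 9.45%. Between the lines 11 of 16 became 14 under quantile normalization and at one median (68.1% and 66.9% of all tested), and 12 with array weights (73%). It was 9 with the arrays compared alone (61.9%) and 9 to 12 when single arrays were left out (61.2% to 63.9%). When probe sets were averaged, 7 of 8 genes were called (65.4%). Without probe sets named _x_at or _s_at, 3 of 7 were called (63.9%). With the replicate block the counts were 0 in each depletion comparison; between cell models and lines the block could not be fitted. No called value changed sign, while 153 values that were not called did. Of 2196 values of single genes under alternatives, 2157 kept their side of the threshold, 12 lost it and 27 gained it. Only 14 of the 126 gene results behind these values were called in the main fit, so most of those kept were uncalled. The causes were not tested.

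Counts over all probe sets moved more. Leaving out single arrays gave 217 (without rho+ replicate 2) to 5887 (without rho0 replicate 3) in rho0 cells, where every other such fit gave 476 to 531, 50 (without DN-POLG day 0 replicate 3) to 986 (without day 0 replicate 2) at day 6, 1049 (without day 9 replicate 3) to 2300 (without day 0 replicate 2) at DN-POLG day 9, and 1375 (without AOX/NDI1 day 0 replicate 3) to 2102 in AOX/NDI1 cells. At day 6 the main 347 became 1058 with array weights, 182 after quantile normalization, 129 at one median, 41 with the replicate block, 32 without the signal filter and 1 with the arrays compared alone. At day 9 of DN-POLG 1944 became 5750 with array weights and 499 with the arrays alone, and in AOX/NDI1 cells 2758 became 9711 and 7739. In rho0 cells 1760 became 8305 with array weights, 749 with the block, 451 without the filter and 93 with the ANOVA. The share of calls that were higher moved from 23.1% to 42.3% and 64.3% at day 6, from 21.1% to 34.0% and 38.6% in AOX/NDI1 cells and from 29.7% to 42.4% and 69.1% in rho0 cells under quantile normalization and one median. The median of all tested moved from -0.03 to 0.07 at day 6 and from -0.04 to 0.10 in AOX/NDI1 cells at one median.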
